A study of Mus musculus with 21 samples.

Results

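The semaphorins with their plexin and neuropilin receptors, and the ephrins with their Eph receptors, were followed in the neocortex of rNLS8 mice. Members were taken by symbol from the deposited count table, as every row named Sema3 to Sema7 with a letter, Plxn, Nrp, Eph or Efn with its subclass, and 53 of the 48474 rows matched. They were 20 semaphorins, 9 plexins, 2 neuropilins, 9 EphA and 5 EphB receptors, 5 ephrin-A ligands and 3 ephrin-B ligands.

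rNLS8 (TG) mice carry NEFH-tTA and tetO-hTDP-43ΔNLS, so that human TDP-43 without its nuclear localization signal is made under the neurofilament heavy chain promoter, mostly in neurons, once doxycycline is withdrawn. Wild-type (WT) mice were the controls, and all 21 mice, 11 WT and 10 rNLS8, had received 350 µg of a non-targeting ASO in 10 µL by intracerebroventricular injection at 17 to 19 weeks of age. The doxycycline diet (200 mg/kg) ended 2 weeks after the injection and tissue was taken after 3 weeks of transgene expression, so neither untreated mice nor mice without an injection are among the groups. Batch A held 4 WT and 3 rNLS8 mice and batch B held 7 WT and 7 rNLS8 mice, and numbers given to mice here only name them within a genotype.

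Semaphorins and ephrins are cues that steer growing axons, and their receptors continue to act at synapses and dendritic spines of the adult cortex. Class 3 semaphorins are secreted and mostly signal through a neuropilin paired with an A-type plexin, whereas the other vertebrate classes are held at the membrane and bind plexins directly. Ephrin-A ligands are anchored in the membrane by a lipid and ephrin-B ligands span it, and both signal into the cell that carries the Eph receptor tyrosine kinase and back into the cell that carries the ephrin.

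The libraries held between 20700912 and 22263809 counts, and 3 counts, the limit that a count of 0 allows, corresponded to 0.135 to 0.145 CPM, counts scaled to the total of a library. Tardbp, counted on the mouse gene while the transgene is human, lay between 2253 and 2827 normalized counts in WT mice and above every WT mouse in 9 of 10 rNLS8 mice. The 3 rNLS8 mice of batch A, at 2363 to 3091, lay below all 7 of batch B, at 4405 to 5053. Its log2 fold change was 0.26 in batch A (adjusted p = 0.191) and 0.79 in batch B (unadjusted p of the difference 7.31e-06, adjusted p = 0.133 in edgeR). rNLS8 mouse 9 of batch A was inside the WT range at 2363, and its deviation from the other rNLS8 mice correlated with transcript length (Spearman rho -0.53 across 14160 genes) and GC content (0.52), where the other 9 rNLS8 mice were at -0.20 to 0.33 and -0.49 to 0.18. rNLS8 mouse 8 of batch A had the lowest summed neuronal and the highest summed microglial markers of its genotype. Log2 fold changes without these mice are therefore given for the called members.

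The labels name neocortex, whereas a figure legend of the study names hippocampus for rNLS8 mice. The 7 neocortical markers summed to 536 to 734 CPM in WT and 416 to 543 CPM in rNLS8 mice. The 6 hippocampal markers summed to 46.5 to 121 CPM in WT and 29.1 to 105 CPM in rNLS8 mice. Sums over different genes do not measure a share of tissue. Summed neuronal markers lay at 6183 to 7861 CPM in WT and 4367 to 5659 CPM in rNLS8 mice with 7 of 10 markers lower, and 6 of 7 inhibitory neuron, 3 of 6 excitatory neuron and 2 of 7 neocortical markers were lower. Summed microglial markers were at 432 to 499 and 469 to 737 CPM with 7 of 10 markers higher and 1 lower, and summed astrocyte markers at 5071 to 6357 and 4512 to 5674 CPM with 5 of 8 lower and 1 higher. Of the striatal markers 2 of 6 were lower, and 0 of 8 oligodendrocyte and 0 of 6 hippocampal markers passed the test. In bulk tissue, fewer cells of a type and less RNA per cell cannot be told apart, and the part of these marker shifts in the results below was not tested.

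Of the 53 members, 51 had enough counts for the test. Efna4 and Epha1 did not, with 3.19 to 11.5 and 2.04 to 11.3 normalized counts in WT mice and 2.87 to 9.18 and 1.88 to 7.65 in rNLS8 mice. Counts were normalized to the mean effective library size. Per kilobase of exon, WT levels were highest for Sema7a (1250.4 ± 89.5 normalized counts per kb, SD, n = 11), Efnb3 (830 ± 167), Sema6b (711 ± 58.1), Ephb6 (669 ± 80.6) and Efna3 (430.0 ± 36.4). The lowest tested level was that of Epha2 (6.61 ± 1.54).

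At an adjusted p under 0.05 (edgeR's quasi-likelihood test with batch as covariate, adjusted over all 18248 genes tested), 13 members were higher in rNLS8 mice and 14 were lower. Log2 fold changes of the members are given with ± their standard error. These 27 of 51 are 52.9%, against 44.7% of all genes tested. Among all genes 23.0% were higher and 21.7% lower. The median log2 fold change was -0.03 over the members and -0.00 over all genes, and the median absolute log2 fold change was 0.17 and 0.18. With scaling by library size alone, the median of all genes moved to 0.08 and 18 members were higher and 8 lower, and among all genes called the higher share rose from 51.4% to 67.9%.

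**Figure D1:**
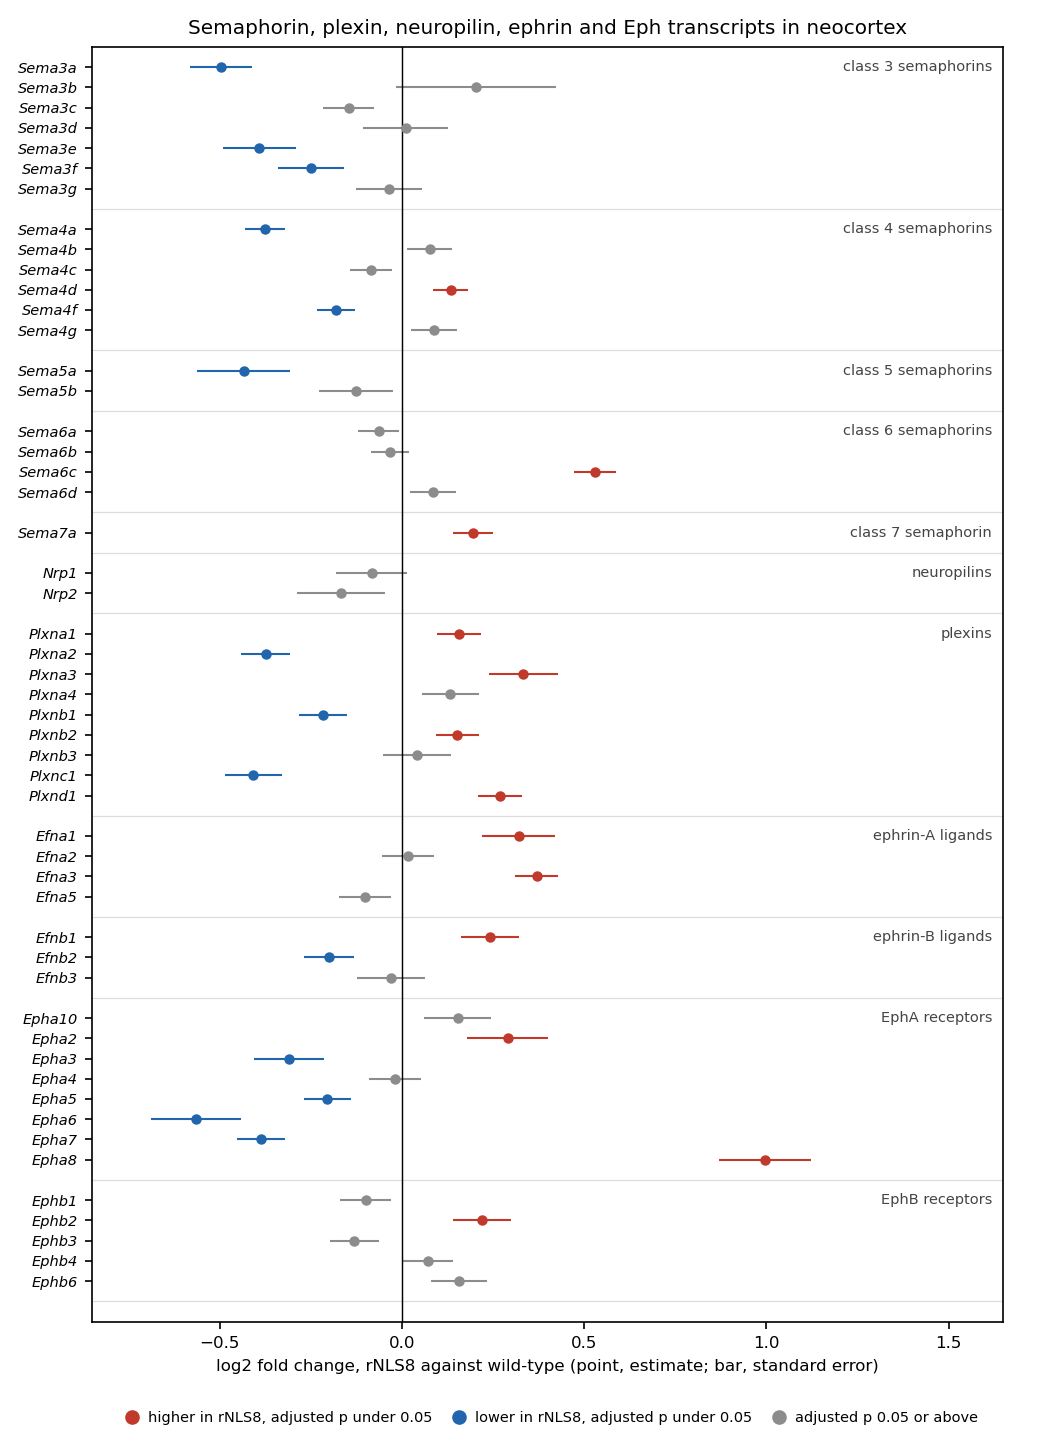
Log2 fold change (x axis, rNLS8 against WT, with its standard error as a bar) of the 51 members tested, by family (y axis), over 11 WT and 10 rNLS8 mice. Epha8 at 0.996 and Sema6c at 0.53 lie farthest to the right and Epha6 at -0.57 and Sema3a at -0.50 farthest to the left, and no class 3 semaphorin is among the higher members.

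The promoters of the Eph receptor and the semaphorin that rose most and fell most are shown for reference, as 250 bases before and 50 bases after the start in RefSeq (GRCm38.p6). They were picked after the values had been seen, among members with an entry within 100 bases of the gene start, which left out Sema3a and led to Sema5a. Capitals mark the GC box GGGCGG, or CCGCCC where it lies on the other strand, a sequence that 35.7% of the 32851 RefSeq promoters of 300 bases hold on either strand, counting overlapping matches. Epha8 lies at chr4:136956767-136957066 on the minus strand, Epha6 at chr16:60605482-60605781 on the minus strand, Sema6c at chr3:95160170-95160469 on the plus strand and Sema5a at chr15:32244563-32244862 on the plus strand.
Epha8: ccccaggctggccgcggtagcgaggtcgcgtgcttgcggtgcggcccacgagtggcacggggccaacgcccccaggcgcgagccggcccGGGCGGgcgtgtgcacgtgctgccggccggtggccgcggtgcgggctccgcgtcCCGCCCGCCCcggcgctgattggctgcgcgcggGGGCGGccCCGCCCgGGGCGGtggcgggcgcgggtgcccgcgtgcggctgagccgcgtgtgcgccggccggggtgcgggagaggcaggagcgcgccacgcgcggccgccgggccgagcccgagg
Epha6: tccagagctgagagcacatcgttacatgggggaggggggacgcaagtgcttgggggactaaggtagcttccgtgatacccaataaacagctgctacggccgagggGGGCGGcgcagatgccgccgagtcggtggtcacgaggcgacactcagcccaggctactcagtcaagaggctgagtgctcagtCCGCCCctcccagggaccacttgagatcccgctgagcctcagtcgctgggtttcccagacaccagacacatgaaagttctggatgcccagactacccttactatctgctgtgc
Sema6c: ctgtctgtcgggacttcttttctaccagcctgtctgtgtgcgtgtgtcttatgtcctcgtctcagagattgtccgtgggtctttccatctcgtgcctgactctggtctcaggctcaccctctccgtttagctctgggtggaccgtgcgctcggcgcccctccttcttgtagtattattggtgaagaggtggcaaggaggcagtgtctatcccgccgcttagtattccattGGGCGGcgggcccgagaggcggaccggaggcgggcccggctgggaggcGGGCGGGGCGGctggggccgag
Sema5a: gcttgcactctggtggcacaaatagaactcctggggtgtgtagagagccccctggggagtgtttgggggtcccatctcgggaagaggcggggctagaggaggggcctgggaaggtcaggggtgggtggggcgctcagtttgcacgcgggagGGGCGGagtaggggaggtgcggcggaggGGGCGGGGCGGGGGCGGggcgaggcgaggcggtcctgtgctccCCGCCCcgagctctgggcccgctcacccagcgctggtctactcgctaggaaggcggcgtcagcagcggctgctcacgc

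The Epha8 promoter held 56 CpG and 6 GC boxes, that of Epha6 15 CpG and 2, that of Sema6c 23 CpG and 3 and that of Sema5a 23 CpG and 5, where the median RefSeq promoter has 7 CpG. Of the 47 members with a promoter entry, 37 held a GC box in at least 1 entry. They were 10 of 12 higher, 10 of 13 lower and 16 of 20 members that did not pass, and 1 of 2 not tested.

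Of the secreted class 3 semaphorins 3 of 7 were lower and 0 higher (median log2 fold change -0.15). Sema3a, the founding repellent of this class that acts through Nrp1 and A-type plexins, lies on chromosome 5 from 13125414 to 13602565 (GRCm38). It had 333 normalized counts in the lowest, 469 in the median and 576 in the highest WT mouse, and 240.0, 354 and 439.8 in rNLS8 mice. Over both batches the groups overlapped, with 4 rNLS8 mice below every WT mouse. In batch B alone the 7 rNLS8 mice, at 277 to 439.8, lay below the 7 WT mice, at 452 to 576, and in batch A, where levels were lower, 240.0 to 358 overlapped 333 to 469. Plxna2, Efna3, Epha8 and Sema6c also separated the genotypes within batch B, and the share of all genes that did so was not counted. The log2 fold change of Sema3a was -0.50 ± 0.085 (adjusted p = 3.87e-05), with -0.49 in batch A and -0.50 in batch B.

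Sema3e, which binds Plxnd1 without a neuropilin, ranged from 438 over a median of 589 to 714 normalized counts in WT mice and from 242 over 480.0 to 566 in rNLS8 mice. The 2 lowest values were those of rNLS8 mice 9 and 8 of batch A at 242 and 323. Its log2 fold change was -0.39 ± 0.0995 (adjusted p = 0.00239) over all mice, -0.69 in batch A and -0.25 in batch B, and -0.25 without rNLS8 mice 8 and 9 (adjusted p = 0.012). Sema3f, which acts through Nrp2 and is known for limiting spine number on cortical dendrites, reached 142, 199.9 and 235 normalized counts in the lowest, median and highest WT mouse and 140.2, 161 and 203 in rNLS8 mice. The ranges of Sema3f overlapped almost fully and its log2 fold change was -0.25 ± 0.0898 (adjusted p = 0.0261). This call was lost without WT mouse 4 (adjusted p = 0.054) and without rNLS8 mice 8 and 9 (log2 fold change -0.24, adjusted p = 0.064), while fits without a single mouse gave -0.29 to -0.22.

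The other class 3 members did not pass. Sema3c (log2 fold change -0.15, adjusted p = 0.0945), Sema3g (-0.04) and Sema3d (0.01) lay closer to 0 than the called members, although Sema3c passed without rNLS8 mouse 10 (-0.20, adjusted p = 0.0177). Sema3b (0.20 ± 0.22) ranged from 51.8 to 279.6 normalized counts in WT mice, the largest coefficient of variation of the members tested at 67.2%, and passed as higher without WT mouse 8 (0.41, adjusted p = 0.0439), whereas without rNLS8 mouse 7 it was at 0.10 (adjusted p = 0.750).

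Among the membrane-bound semaphorins 3 of 13 were higher and 3 lower. Sema6c, a transmembrane class 6 semaphorin, lies on chromosome 3 from 95160457 to 95174024. Its counts were 301, 339 and 371 in the lowest, median and highest WT mouse and 376, 466 and 579.5 in rNLS8 mice, so that every rNLS8 mouse lay above every WT mouse. The lowest rNLS8 mouse, at 376, and the highest WT mouse, at 371, nearly met, and the 3 rNLS8 mice of batch A, at 547 to 579.5, were the highest of all. The log2 fold change of Sema6c was 0.53 ± 0.057 (adjusted p = 5.39e-08), with 0.75 in batch A and 0.43 in batch B.

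Sema4a, which is known from T cells and the retina, was lower. WT mice held 754, 958 and 1089.8 normalized counts of Sema4a at the lowest, median and highest, and rNLS8 mice 640.1, 743 and 829. Of the rNLS8 mice 5 lay below every WT mouse, and the fitted log2 fold change was -0.38 ± 0.0546 (adjusted p = 4.62e-06), with -0.41 in batch B and -0.31 in batch A, where it did not pass (adjusted p = 0.0750). Sema5a, a transmembrane semaphorin with thrombospondin repeats, lies on chromosome 15 from 32244810 to 32696341. It spanned 643 to 1144 normalized counts in WT mice, with a median of 796, and 285 to 827 in rNLS8 mice, with a median of 635. Its lowest value was that of rNLS8 mouse 9, its log2 fold change was -0.43 ± 0.128 (adjusted p = 0.00767), and without rNLS8 mice 8 and 9 this was -0.29 (adjusted p = 0.029).

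Sema7a, the lipid-anchored semaphorin that binds Plxnc1 and β1 integrin, had 3608, 4189.9 and 4476 normalized counts in the lowest, median and highest WT mouse and 3823, 4669 and 6119.9 in rNLS8 mice. The 7 rNLS8 mice above every WT mouse included rNLS8 mouse 9 as the highest, and the log2 fold change of Sema7a was 0.20 ± 0.0555 (adjusted p = 0.00586). Sema4f, a membrane-bound semaphorin that binds the postsynaptic protein PSD-95, lay between 889 and 1195 with a median of 1037 in WT mice and between 863 and 986 with a median of 920.1 in rNLS8 mice. The rNLS8 values of Sema4f lay in the lower part of the WT range, with 2 mice below it, at a log2 fold change of -0.18 ± 0.0517 (adjusted p = 0.00614). The table holds a further row for this symbol, Sema4f-2, with 1061 ± 105 (SD, n = 11) and 948 ± 55.0 (SD, n = 10) normalized counts and a log2 fold change of -0.16 (adjusted p = 0.0151), and whether both rows count reads of the same gene is not stated. Sema4d, the ligand of Plxnb1, passed with a log2 fold change of 0.13.

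Sema6a, Sema6b, Sema6d, Sema4b, Sema4c, Sema4g and Sema5b did not pass, with log2 fold changes from -0.13 for Sema5b to 0.09 for Sema4g. Sema6d passed as higher without rNLS8 mouse 9, its lowest sample (0.14, adjusted p = 0.0143), and was at 0.05 without rNLS8 mouse 10 (adjusted p = 0.518). Sema6b, the semaphorin with the highest level per kilobase after Sema7a, was at 2820.4 ± 231 normalized counts (SD, n = 11) in WT and 2742 ± 297 (SD, n = 10) in rNLS8 mice.

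**Figure D2:**
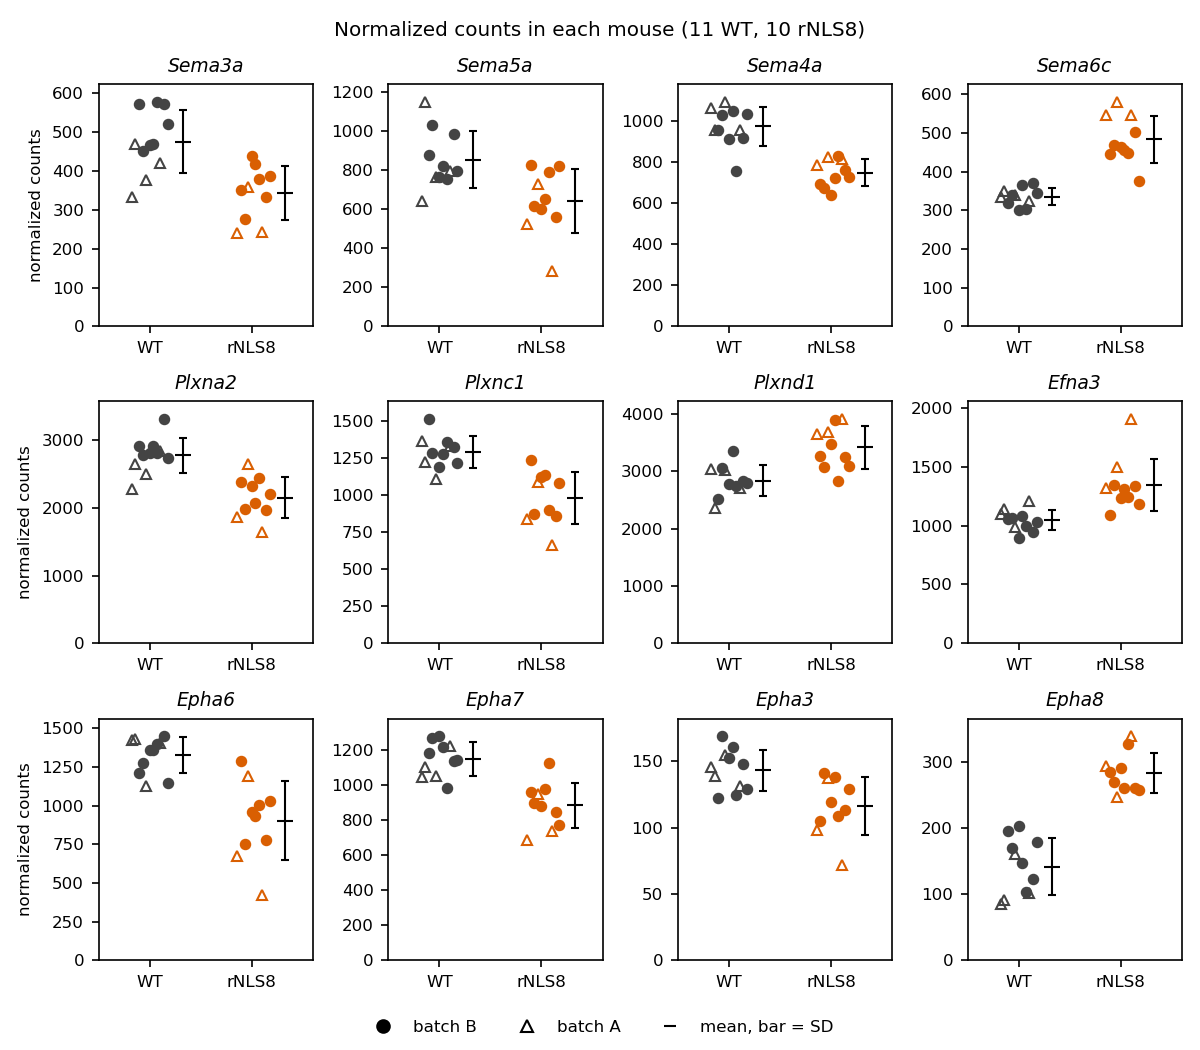
Normalized counts (y axis, from 0) of 12 members in each of 11 WT and 10 rNLS8 mice (x axis), with batch A as open triangles, batch B as filled circles, and the mean with its SD as a bar. Epha8 and Sema6c separate the genotypes over both batches, and Efna3 within each batch but not over both. Sema3a and Plxna2 separate them within batch B only, and Epha7, Sema4a, Plxnc1 and Plxnd1 within batch A only. Sema5a and Epha3 overlap in batch B and have rNLS8 mice of batch A at their lower end.

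Neither neuropilin passed. Nrp1, the co-receptor for Sema3a, had 643 ± 130.0 normalized counts (SD, n = 11) in WT and 604 ± 77.0 (SD, n = 10) in rNLS8 mice (log2 fold change -0.08, adjusted p = 0.523). Nrp2, the co-receptor for Sema3f, had 787 ± 149.5 and 703 ± 154 (log2 fold change -0.17, adjusted p = 0.277).

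Plexins moved in both directions, with 4 of 9 higher and 3 lower. Plxnc1, the receptor for Sema7a, lies on chromosome 10 from 94790866 to 94944835 and had 1108, 1282 and 1509.7 normalized counts in the lowest, median and highest WT mouse against 666, 989 and 1234 in rNLS8 mice. Of the rNLS8 mice 7 lay below every WT mouse, and the log2 fold change of Plxnc1 was -0.41 ± 0.079 (adjusted p = 0.000166). Plxna2, a receptor for class 3 and class 6 semaphorins, lies on chromosome 1 from 194618218 to 194816869. It had 2283, 2806 and 3305 normalized counts in WT and 1639, 2133 and 2642 in rNLS8 mice, 6 of them below every WT mouse, and a log2 fold change of -0.37 ± 0.0664 (adjusted p = 5.94e-05).

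Plxnb1, the receptor for Sema4d, ranged from 2271 to 3597 with a median of 2818 in WT mice and from 2007 to 2981 with a median of 2343 in rNLS8 mice. Its fitted log2 fold change was -0.22 ± 0.0659 (adjusted p = 0.00901). Plxnd1, the receptor for Sema3e, moved the other way, with 2366, 2784 and 3357 normalized counts in the lowest, median and highest WT mouse and 2824, 3373 and 3899.7 in rNLS8 mice. The 5 rNLS8 mice above every WT mouse included all 3 of batch A, at 3651 to 3899.7, and the log2 fold change of Plxnd1 was 0.27 ± 0.0615 (adjusted p = 0.000933).

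Plxna3, which transmits Sema3f signals together with Nrp2, rose from 290.2, 343 and 413 to 324, 423 and 615 normalized counts (lowest, median and highest mouse). Only 5 rNLS8 mice lay above every WT mouse, and the fitted log2 fold change was 0.33 ± 0.0944 (adjusted p = 0.00572). Plxna1 had 1864, 2177 and 2567 in WT and 2135, 2406 and 3031 in rNLS8 mice (0.16 ± 0.0603 on the log2 scale, adjusted p = 0.0371). That call for Plxna1, a receptor of class 3 and class 6 semaphorins, was lost in 8 of 21 fits that each left out a mouse, with adjusted p up to 0.095. Plxnb2, the receptor for Sema4c, passed with a log2 fold change of 0.15, a call lost in 10 of 21 such fits (adjusted p up to 0.076). Plxna4 (0.13) and Plxnb3 (0.04) did not pass. Plxna4 was at 0.18 without rNLS8 mouse 9 (adjusted p = 0.0333) and at 0.06 without rNLS8 mouse 10 (adjusted p = 0.494). An antisense gene, Plxna4os1, overlaps Plxna4 and had 1.04 to 19.8 normalized counts, and whether counting used strand is not stated.

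Of the ephrin-A ligands 2 of 4 tested were higher. Efna3 lies on chromosome 3 from 89313899 to 89322965 and had 897, 1059.8 and 1210.4 normalized counts in the lowest, median and highest WT mouse and 1088, 1312 and 1900.4 in rNLS8 mice. Of the rNLS8 mice 8 lay above every WT mouse, with mouse 9 far above the others, and the log2 fold change of Efna3 was 0.37 ± 0.0597 (adjusted p = 1.88e-05), or 0.31 without mouse 9. Efna1, which lies on chromosome 3 from 89271733 to 89281142, had 57.0, 83.3 and 112 normalized counts in WT and 86.1, 100.1 and 120.0 in rNLS8 mice. The ranges of Efna1 overlapped in all but 1 rNLS8 mouse, and its log2 fold change was 0.32 ± 0.101 (adjusted p = 0.0119). Efna2 (0.02) and Efna5 (-0.10), a ligand that sets topographic maps, did not pass.

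The ephrin-B ligands, which span the membrane, split. Efnb1 had 295, 337 and 494 normalized counts in the lowest, median and highest WT mouse and 324, 414 and 537 in rNLS8 mice (0.24 ± 0.0797 on the log2 scale, adjusted p = 0.0159). Efnb2, which also marks arterial endothelium, had 1066, 1281 and 1641 in WT and 874, 1172 and 1329 in rNLS8 mice (-0.20 ± 0.0681 on the log2 scale, adjusted p = 0.0186). Of the rNLS8 mice 2 were above every WT mouse for Efnb1 and 2 below for Efnb2, and the Efnb2 call was lost without rNLS8 mice 8 and 9 (adjusted p = 0.108). Efnb3 did not pass (-0.03).

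EphA receptors held both the highest rise and the deepest fall of the members, with 2 of 8 tested higher and 4 lower. Epha8 lies on chromosome 4 from 136929419 to 136956816. It had 85.1, 147 and 202.5 normalized counts in the lowest, median and highest WT mouse and 247, 276 and 338 in rNLS8 mice, with no overlap between the genotypes. The log2 fold change of Epha8 was 0.996 ± 0.127 (adjusted p = 6.67e-07). In batch A the mean rose from 109 ± 34.6 (SD, n = 4) to 293 ± 45.5 (SD, n = 3), a log2 fold change of 1.44, and in batch B from 160.1 ± 36.9 (SD, n = 7) to 278 ± 24.9 (SD, n = 7), a log2 fold change of 0.79. Without rNLS8 mice 8 and 9 it was 0.87.

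Epha6 spans chromosome 16 from 59653483 to 60605531, the longest gene among the members. Its counts were 1128, 1362 and 1448 in the lowest, median and highest WT mouse and 424, 947 and 1289 in rNLS8 mice. The rNLS8 values of Epha6 spread widely, with a coefficient of variation of 28.1% against 8.80% in WT mice, and 8 of 10 lay below every WT mouse. The log2 fold change was -0.57 ± 0.124 (adjusted p = 0.000611), or -0.47 without mouse 9, the lowest, and -0.39 without mice 8 and 9.

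Epha7, a receptor for ephrin-A ligands in cortical maps and dendrites, lies on chromosome 4 from 28813131 to 28967499 and had 983, 1141 and 1276 normalized counts in WT and 688, 890.4 and 1126 in rNLS8 mice. For Epha7 9 of 10 rNLS8 mice lay below every WT mouse, at a log2 fold change of -0.39 ± 0.0657 (adjusted p = 3.53e-05). Epha3 had 122, 146 and 169 in WT and 71.6, 116 and 142 in rNLS8 mice, and Epha5 had 1358, 1506 and 1737 against 959, 1392 and 1624. Both are ephrin-A receptors with a known part in mapping axons, and both overlapped between the genotypes. Their log2 fold changes were -0.31 ± 0.0963 (adjusted p = 0.0106) for Epha3 and -0.21 ± 0.0645 (adjusted p = 0.0117) for Epha5. Without rNLS8 mice 8 and 9 they were -0.20 (adjusted p = 0.061) and -0.12 (adjusted p = 0.070), so these calls were lost.

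Epha2, the least abundant member tested, passed with a log2 fold change of 0.29, but 9 of 21 fits without a single mouse did not call it (adjusted p up to 0.069). Epha4, the most abundant EphA receptor and one that binds ephrins of both classes, did not pass, with 3303 ± 408 normalized counts (SD, n = 11) in WT and 3278 ± 423 (SD, n = 10) in rNLS8 mice (log2 fold change -0.02, adjusted p = 0.845). Epha10, which lacks kinase activity, was at 0.15 (adjusted p = 0.188).

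Of the EphB receptors 1 of 5 passed. Ephb2, which binds the NMDA receptor at synapses, had 302, 397 and 478 normalized counts in the lowest, median and highest WT mouse and 382, 447 and 515 in rNLS8 mice. The groups overlapped, with 2 rNLS8 mice above every WT mouse, and the fitted log2 fold change was 0.22 ± 0.0795 (adjusted p = 0.0278). The Ephb2 call was lost in 4 of 21 fits without a single mouse, rNLS8 mouse 9 among them (0.19, adjusted p = 0.057), with log2 fold changes of 0.19 to 0.25. Ephb1 (-0.10), Ephb3 (-0.13), Ephb4 (0.07) and the kinase-inactive Ephb6 (0.16) did not pass, although Ephb3 did in batch B alone (-0.19, adjusted p = 0.0235).

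All rNLS8 mice lay above every WT mouse for 2 of 51 members, Epha8 and Sema6c, where 3.85% of all genes tested did so. For 0 of 51 they lay below every WT mouse, where 3.80% of all genes did.

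Fitted in batch A alone, 5 of 51 members passed, namely Epha8, Sema6c, Efna3, Plxnd1 and Epha7, where 11.8% of genes passed. In batch B alone 19 of 51 passed, where 39.1% of genes passed. The 27 called members had the same sign in both batches, as had 8099 of 8116 genes called and tested in both. Differences were larger in batch A for 20 of the 27, and this was so for 65.5% of all genes called. The genotype by batch interaction in edgeR gave an adjusted p under 0.05 for 0 genes. Its unadjusted p was under 0.05 for 3 members, Sema6c (0.0133), Epha8 (0.0173) and Sema3e (0.0239), where 5.64% of genes reached that level.

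**Figure D3:**
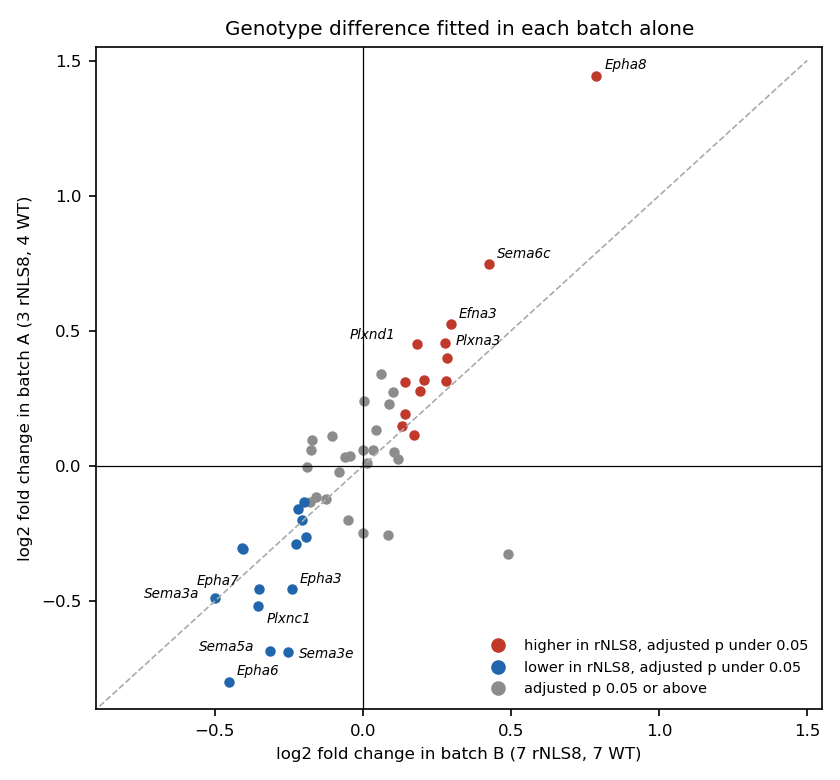
Log2 fold change of each tested member in batch A (y axis, 3 rNLS8 and 4 WT mice) against batch B (x axis, 7 and 7 mice), with the dashed line marking equal values. The 27 called members (coloured) have the same sign on both axes, and Epha8 at 1.44 and 0.79 and Epha6 at -0.80 and -0.45 are farther from 0 in batch A.

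Without rNLS8 mice 8 and 9, 20 of the 27 called members still passed. Among the semaphorins the log2 fold change was then -0.43 for Sema3a, 0.50 for Sema6c, -0.38 for Sema4a, -0.20 for Sema4f, 0.16 for Sema7a and 0.15 for Sema4d. Among the plexins it was -0.32 for Plxnc1, -0.31 for Plxna2, -0.18 for Plxnb1, 0.23 for Plxnd1, 0.30 for Plxna3 and 0.20 for Plxna1, and for the ephrins and Eph receptors 0.33 for Efna3, 0.30 for Efna1, 0.24 for Efnb1 and -0.32 for Epha7. Of the 7 that no longer passed, Ephb2 (0.21), Epha2 (0.28), Plxnb2 (0.16) and Sema3f (-0.24) had about the size they had over all mice, whereas Epha3 (-0.20), Epha5 (-0.12) and Efnb2 (-0.14) were closer to 0 than over all mice.

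Higher and lower members differed in the genes that encode them. The 14 lower members spanned 24.5 to 952 kb of genome with a median of 177 kb, and 9 of them spanned over 100 kb. The 13 higher members spanned 9.07 to 188 kb with a median of 25.2 kb, and 2 of them, Sema4d and Ephb2, spanned over 100 kb. The 24 members that did not pass had a median of 38.3 kb, and 11 of them spanned over 100 kb. GC content of the longest transcript was 48.7% in the median lower, 57.3% in the median higher and 56.4% in the median member that did not pass.

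All protein-coding genes tested leaned the same way, with medians of 34.3 kb for 3252 lower, 19.3 kb for 3381 higher and 26.5 kb for 7527 other genes. Their median GC content was 48.7%, 51.1% and 49.9%. Of the 525 genes over 300 kb, 40.4% were lower and 5.71% higher, and of the 8 members of that size 5 were lower (Epha6, Sema3a, Sema5a, Epha5 and Epha3) and 0 higher. Below 10 kb, 21% of 3272 genes were lower and 27.2% higher, and of 4 members Efna1 and Efna3 were higher and 0 lower. Without rNLS8 mice 8 and 9, Epha6, Sema3a and Sema5a still passed, whereas Epha5 (-0.12, adjusted p = 0.070) and Epha3 (-0.20, adjusted p = 0.061) did not. Epha7, Plxnc1, Plxna2 and Sema3e, which span 154 to 231 kb, still passed. The deviation of rNLS8 mouse 9 from the other rNLS8 mice also correlated with gene span (Spearman rho -0.46), where the other rNLS8 mice were at -0.17 to 0.32. Whether span, GC content or the neuronal marker shift has a part in these differences was not tested.

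**Figure D4:**
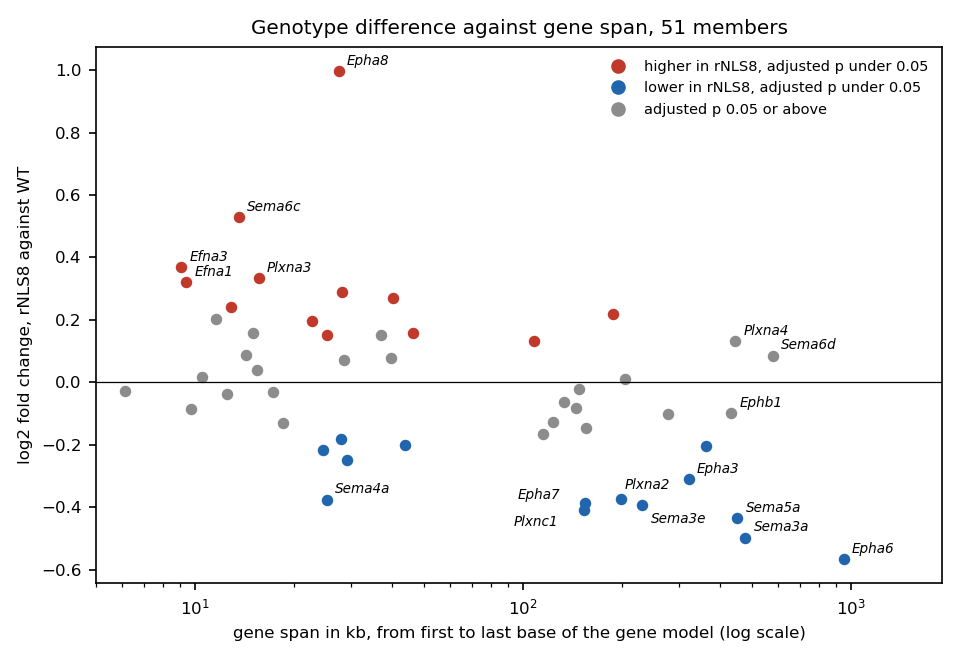
Log2 fold change of 51 members (y axis) against the span of the gene in kb (x axis, log scale). Lower members reach to 952 kb for Epha6, whereas the higher members farthest to the right are Ephb2 at 188 kb and Sema4d at 108 kb.

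Genes that act with these receptors also moved in both directions. Of 42 co-receptors and effectors of semaphorins and plexins 11 were higher and 10 lower. The 5 with the largest change were Cdk5r1, the p35 activator of Cdk5 (log2 fold change -0.65, adjusted p = 1.24e-10), Trem2 (0.59, adjusted p = 3.27e-05) and its adaptor Tyrobp (0.53, adjusted p = 0.000238), the plexin-B-bound exchange factor Arhgef11 (0.52, adjusted p = 6.13e-09) and the Sema3a co-receptor L1cam (0.51, adjusted p = 1.89e-06). Trem2 is also among the microglial markers, whose sum rose as given above.

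Of 32 effectors of ephrins and Eph receptors 4 were higher and 10 lower. The Rac regulators downstream of EphA receptors Chn2 (-0.49, adjusted p = 0.000111), Chn1 (-0.46, adjusted p = 1.74e-07) and Ngef (-0.46, adjusted p = 8.61e-06) and the exchange factor Kalrn (-0.45, adjusted p = 1.38e-07) were lower, and the adaptor Grb10 (0.50, adjusted p = 7.03e-06) was higher.

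Of 36 other guidance genes 4 were higher and 15 lower, with a median log2 fold change of -0.20. Rtn4, which encodes Nogo (-0.65, adjusted p = 2.13e-11), the netrin-G genes Ntng1 (-0.64, adjusted p = 0.000454) and Ntng2 (-0.54, adjusted p = 2.86e-06), the netrin receptor Dcc (-0.56, adjusted p = 0.000572) and Ntn5 (-0.47, adjusted p = 0.0287) had the largest changes among those with at least 50 counts. The lists were called at 50%, 43.8% and 52.8%, beside 44.7% of all genes.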

How the data were processed

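Poly-A RNA from the neocortex (as labelled, brain cortex in the methods and hippocampus in a figure legend) of 21 mice was sequenced as 100 bp paired-end reads and aligned to GRCm38 (mm10). The submitters' processing notes name HISAT, HISAT2, Bowtie2, Bowtie and RSEM, while their roles and the annotation are not given in the sources used here. The authors deposited whole counts per gene symbol without normalization, and whether these were rounded estimates is not stated. Sex is not stated mouse by mouse in the sources used here, and the study analysed both sexes together. A marker of the neocortical and excitatory lists is not reported here. Each library is labelled as its own animal. Of 48474 rows, 13329 had no count and 2553 were further rows of a symbol (4.11% of counts), kept as deposited.

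The test was edgeR 4.0.16 in R 4.3.3. Low genes were removed (filterByExpr, minimum count 10, minimum total 15), counts were scaled by TMM, and genotype was tested by the quasi-likelihood test (two-sided) with batch as covariate and Benjamini-Hochberg adjustment over 18248 genes, at 0.05. A standard error is the absolute log2 fold change over the square root of F. Gene spans, exon lengths and GC content came from GENCODE M21 (GRCm38), which matched 88.5% of the genes tested, and promoters from RefSeq. The procedures were tested on simulated counts.

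The 24 called members with the largest change and a mean of at least 50 counts are given in full, other called members by fold change, and from each partner list the 5 largest such changes. Members, lists and rules were chosen with earlier results of these data known. Alternatives were DESeq2 1.42.0 with and without batch, edgeR without batch, other scalings, other filters, each batch alone, Xist as covariate, further rows left out or summed, each mouse left out and, added after the data were seen, rNLS8 mice 8 and 9 left out. Counting limits cover counting error only.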

Additional observations from a re-analysis of the deposited data

Results flagged for a closer look

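In 7 members, among 51 searched over the 10 rNLS8 mice, the gap between an extreme mouse and its neighbour took a larger share of the range than Dixon's 95% critical value for 10 values, which chance gives in about 1 in 20 groups of like values. The mice came from both batches and the counts were not adjusted for batch, so that rate may not hold here. rNLS8 mouse 9 was the extreme in 4 of the 7 members. It was the highest for Efna3, with 1900.4 normalized counts against 1496 in the next mouse (share 0.498), and for Sema7a, with 6119.9 against 4960.1 (0.505). It was the lowest for Nrp1, with 424 against 576 (0.535), and for Sema6d, with 1161 against 1689 (0.672). Mouse 1 was the highest for Efnb3, with 3422 against 2632 (0.559), and for Sema5b, with 487 against 379.9 (0.526). Mouse 10 was the highest for Plxna1, with 3031 against 2582 (0.501).

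For Sema4c, a ligand of Plxnb2, all 3 rNLS8 mice of batch A lay above the WT mean of their batch and all 7 of batch B below theirs. The fitted difference between the batches was 0.235 on the log2 scale (unadjusted p = 0.0503, adjusted p = 0.875 in edgeR).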

How the results depend on the processing

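None of the 24 members given in full changed sign under any of the 14 other settings or when single mice were left out, and over all 27 called members, leaving out 1 mouse at a time lost the call in 33 of 567 fits, namely 10 of Plxnb2, 9 of Epha2, 8 of Plxna1, 4 of Ephb2 and 1 each of Sema3f and Sema4d. Batch A alone gave 2195 genes, 4 members higher and 1 lower, a member median of 0.0338 and 16 partner genes, from 7 mice. Batch B alone gave 6 members higher. Library size alone gave 8 members lower and a member median of 0.0470, as the median of all genes moved. Plxnb1, Epha5, Sema4f, Efnb2 and Sema3f were among the calls then lost (adjusted p from 0.094 for Plxnb1 to 0.132 for Sema3f in edgeR). Leaving out 1 mouse gave 7805 to 8363 genes, 10 to 14 members higher and 13 to 15 lower, and 0 to 1 genes with an interaction. Without rNLS8 mice 8 and 9, 12 members were higher and 10 lower, and Epha3, Epha5 and Efnb2 no longer passed, nor did Sema3f, Ephb2, Epha2 and Plxnb2, whose log2 fold changes stayed about as large. DESeq2 with batch called 12 and 14 and without batch 11 and 13, edgeR without batch 10 and 13, and no filter 12 and 13. The cause of these shifts was not tested. No paired analysis was run, because each library is its own animal and the labels name no pairs. Low counts limit Epha2, and left Efna4 and Epha1 untested.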
